A study of Rattus norvegicus with 174 samples.

Results

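The transcripts that set the heart apart from other organs were described in 14 hearts of rats that had breathed air only. Every air-exposed heart of the series was taken, from all times, and compared with the air-exposed brain, kidney, liver, lung and blood. These hearts were 14 of 79 air arrays and of 174 arrays in the whole series. The comparison asks which genes mark the heart in the absence of the toxic gas.

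The animals were outbred male Sprague-Dawley rats, and the series examined inhaled phosphine, a fumigant gas. All rats spent 32.2 min in a whole-body exposure, at 0 ppm in the air group and at 660 ppm in the phosphine group, a product of 21252 ppm x min. All were anaesthetised with ketamine and xylazine and exsanguinated, so both agents were shared by every group. Hearts were taken 1 h (4 air rats), 3 h (4), 6 h (2) and 24 h (4) after exposure, and 4 phosphine hearts were available at each time. The same 14 air rats gave brain, kidney, liver and lung, so these arrays share animals. Air blood came from 9 of them, drawn through a needle into the heart, with 4 samples at 1 h, 4 at 3 h, 1 at 6 h and none at 24 h. The labels do not say which part of the heart was ground, and they do not separate atria from ventricles.

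Values are deposited log2 intensities of Affymetrix probe sets, on which a difference of 1 is a 2-fold difference. For 13437 genes, each tissue was given 1 mean over its air arrays, and the heart was compared with the equally weighted mean of the other 5 tissues and with each of them. A gene is called heart-marking when limma placed the heart at least 2-fold above every one of the 5 tissues, each at an adjusted p under 0.05. The next tissue is the highest of the other 5, and the gap is heart minus that tissue. Since the gap defines the heart-marking genes, their gaps are a description. In extracts of whole organs, fewer cells of a type and less RNA per cell cannot be told apart.

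A heart beats because cardiac muscle cells release calcium from the sarcoplasmic reticulum at each electrical impulse, and the calcium lets myosin thick filaments pull on actin thin filaments. The muscle burns fatty acids in densely packed mitochondria and buffers its energy as creatine phosphate. Atrial muscle also works as a gland that secretes natriuretic peptides, and atrial and ventricular muscle build their sarcomeres from partly different isoforms. In rodents, sleeves of cardiac muscle also extend along the pulmonary veins.

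The heart arrays resembled each other closely. The correlation between 2 hearts over all genes lay between 0.974 and 0.994, against a median of 0.808 between heart and lung and 0.596 between heart and blood. Array medians ran from 5.57 to 5.87 in heart and from 4.97 to 5.10 in blood. Some extracts carried transcripts of another organ. The hearts of Rat762 and Rat763, which are the only 6 h air hearts, held hepatocyte transcripts, with a marker list 2.86 and 3.05 above the median heart. The lungs of Rat733 and Rat738 held skeletal muscle transcripts, with that list at 6.99 and 4.79 against 3.07 to 3.30 in the other lungs. In 6 air arrays a list of another organ lay at least 2 log2 above its tissue's median. These were the 2 hearts, the brain of Rat720, the kidneys of Rat720 and Rat744, and the lung of Rat733. The first 3 tissues held hepatocyte transcripts, as did that lung, whose hepatocyte list lay 3.15 above the median. The lung of Rat738 was below the limit and was kept. Without the 6 arrays, the number of heart-marking genes was 516, against 518 with them, and 511 genes were in both.

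The 3 defining markers were at high level in every heart. Myh6, the fast myosin heavy chain of cardiac muscle, measured 12.80 in the lowest heart, 12.93 at the median and 13.02 in the highest. Its medians were 2.73 in brain, 2.75 in kidney, 2.79 in liver and 3.02 in blood, while lungs ran from 5.44 to 10.12 with a median of 9.23. Every heart was above every other array, and the lung stood between heart and the rest. The heart exceeded the lung by 3.94 ± 0.19 (limma adjusted p = 4.41e-33) and the mean of the 5 tissues by 8.87 ± 0.15 (adjusted p = 1.52e-65). Here and in the other tissue comparisons, ± is the SE of the limma fit to all 79 air arrays. That fit gives each gene a variance shared by all tissues. For Myh6 the lungs spread far more than the hearts, so the shared variance understates the spread of the lungs. The gap rests on the probe set kept for Myh6. On its other 2 probe sets the lung means were 3.95 and 3.40, and the gaps over the next tissue were 7.11 and 5.56.

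Nppa encodes atrial natriuretic peptide, the hormone stored in atrial granules. Its hearts ran from 11.95 through a median of 12.46 to 12.72. Brain was next, between 4.11 and 4.62, and the medians of kidney, liver, lung and blood were 3.33, 3.57, 3.22 and 4.08. The groups did not overlap, and the heart exceeded the brain by 8.04 ± 0.21 (limma adjusted p = 1.65e-51). Tnnt2, the cardiac troponin T that anchors the calcium switch to the thin filament, ran from 12.51 through 12.66 to 12.89 in heart. Lungs ran from 3.43 through 6.83 to 7.55, and brain had a median of 4.15. No lung reached any heart, and the gap was 6.04 ± 0.19 (limma adjusted p = 7.61e-45). The other probe set of Tnnt2 was dim in all tissues, at 2.85 in heart, and with the mean of both probe sets the gap was 3.12. All 3 markers therefore bore out the tissue label on all 14 hearts.

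**Figure D1:**
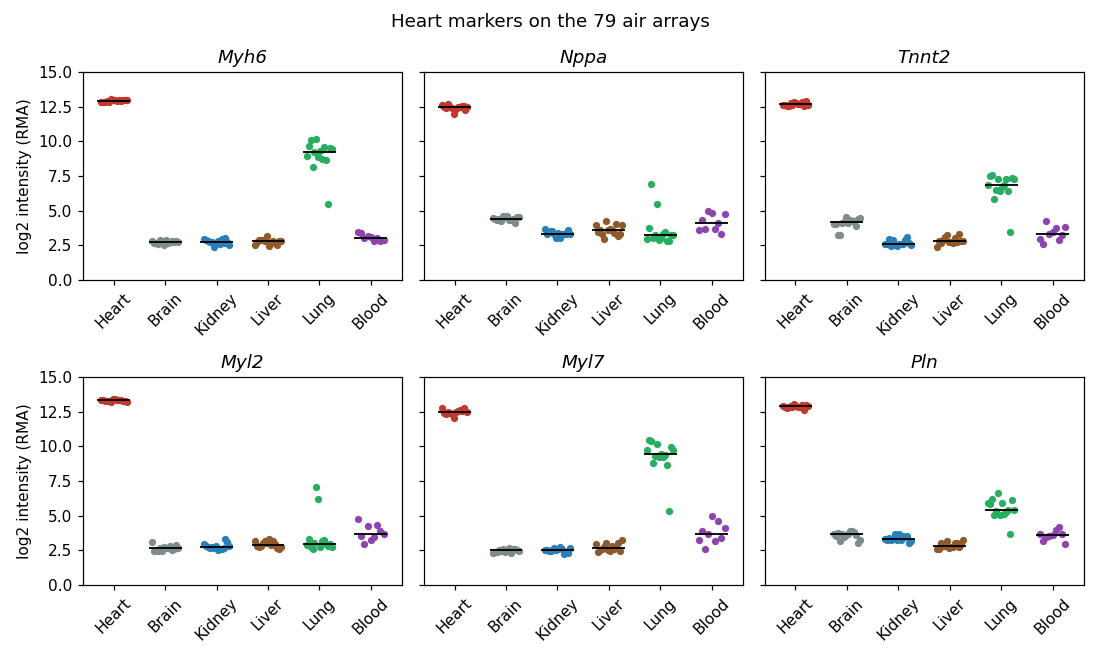
Log2 intensity (vertical axis) of 6 genes on each of the 79 air arrays by tissue (horizontal axis), with points for arrays and a line at the median. All 14 hearts lie above every other array for each gene. Lungs stand above the remaining tissues for Myh6, Myl7, Tnnt2 and Pln, and 2 lungs stand out for Nppa and for Myl2.

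The promoters of 7 heart-marking genes are shown because these genes carry the 3 markers and their nearest relatives in function. Each stretch holds 250 bases before and 50 after the annotated start, from RefSeq on GRCr8, 5′ to 3′ on the gene's strand. Tnnt2 has more than 1 promoter in that table and the first is shown. Capitals mark matches, on either strand, to 6 motifs: the TATA box as TATAAA, the GATA factor motif as AGATAA, the NKX2-5 motif as TNAAGTG, the TEAD motif as CATTCC, the MEF2 motif as CTA and TAG with any 4 bases between, and the CArG box of the factor SRF. No marked matches overlap.
Myh6, chr15:32411648-32411947, minus strand: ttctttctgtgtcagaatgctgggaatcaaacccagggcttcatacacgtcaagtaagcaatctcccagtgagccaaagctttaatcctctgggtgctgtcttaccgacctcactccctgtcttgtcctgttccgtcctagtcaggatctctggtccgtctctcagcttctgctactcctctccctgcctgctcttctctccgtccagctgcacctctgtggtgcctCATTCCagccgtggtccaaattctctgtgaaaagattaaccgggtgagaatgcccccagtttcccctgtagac
Nppa, chr5:163711934-163712233, plus strand: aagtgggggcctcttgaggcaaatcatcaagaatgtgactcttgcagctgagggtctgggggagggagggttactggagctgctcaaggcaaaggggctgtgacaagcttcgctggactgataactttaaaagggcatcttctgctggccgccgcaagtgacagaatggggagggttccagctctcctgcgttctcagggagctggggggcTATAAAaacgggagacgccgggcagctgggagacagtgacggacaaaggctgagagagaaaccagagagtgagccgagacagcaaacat
Nppb, chr5:163699758-163700057, plus strand: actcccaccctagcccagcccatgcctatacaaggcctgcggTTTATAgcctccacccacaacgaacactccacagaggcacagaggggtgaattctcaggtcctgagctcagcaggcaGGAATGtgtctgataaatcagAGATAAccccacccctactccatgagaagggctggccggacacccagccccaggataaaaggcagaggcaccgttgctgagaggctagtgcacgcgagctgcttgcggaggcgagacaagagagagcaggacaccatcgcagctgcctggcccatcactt
Tnnt2, chr13:49818873-49819172, plus strand: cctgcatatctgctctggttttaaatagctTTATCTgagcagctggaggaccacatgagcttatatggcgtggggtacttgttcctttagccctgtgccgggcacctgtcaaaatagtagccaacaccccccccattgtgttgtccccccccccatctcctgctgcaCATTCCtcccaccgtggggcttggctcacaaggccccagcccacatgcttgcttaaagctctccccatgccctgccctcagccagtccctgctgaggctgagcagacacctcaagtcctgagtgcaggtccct
Tnni3, chr1:78342321-78342620, plus strand: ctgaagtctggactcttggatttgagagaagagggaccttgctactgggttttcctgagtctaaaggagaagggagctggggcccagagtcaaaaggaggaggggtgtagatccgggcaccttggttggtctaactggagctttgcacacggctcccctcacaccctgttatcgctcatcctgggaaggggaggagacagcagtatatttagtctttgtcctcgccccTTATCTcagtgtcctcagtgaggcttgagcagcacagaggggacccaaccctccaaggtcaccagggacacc
Myl3, chr8:119616844-119617143, plus strand: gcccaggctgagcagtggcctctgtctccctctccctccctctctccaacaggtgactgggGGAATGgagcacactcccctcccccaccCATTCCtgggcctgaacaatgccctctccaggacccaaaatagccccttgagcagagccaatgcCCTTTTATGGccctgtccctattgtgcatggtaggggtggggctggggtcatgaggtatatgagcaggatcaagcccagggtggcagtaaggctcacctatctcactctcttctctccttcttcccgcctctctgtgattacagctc
Myl4, chr10:89975900-89976199, plus strand: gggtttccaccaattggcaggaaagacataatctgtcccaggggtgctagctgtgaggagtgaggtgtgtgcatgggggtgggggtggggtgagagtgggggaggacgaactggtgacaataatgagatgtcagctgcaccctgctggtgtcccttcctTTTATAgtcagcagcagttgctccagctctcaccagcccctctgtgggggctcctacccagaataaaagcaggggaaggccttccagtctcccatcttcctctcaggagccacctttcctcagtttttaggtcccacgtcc
Nppa carried the TATA box letters 39 bases before its start. Nppb, whose gene product is the ventricular natriuretic peptide, carried the GATA letters 110 bases before its start and the TEAD letters, on the opposite strand, 131 bases before it. Tnnt2 carried the GATA letters on the opposite strand 220 bases before and the TEAD letters 83 bases before the start. Tnni3 carried the GATA letters on the opposite strand 22 bases before, Myh6 the TEAD letters 23 bases before, and Myl3 a CArG box 97 bases before the start. None of the 7 held the NKX2-5 or MEF2 letters in this window. Such short motifs are common: of all 33469 promoters in the table, 14.2% held the TATA box letters, 11.6% those of GATA, 14.2% those of TEAD, 11.5% those of NKX2-5, 3.84% those of MEF2 and 1.64% a CArG box. Of 482 promoters of heart-marking genes, which covered 428 of 518 genes, the shares were 9.75%, 9.54%, 15.1%, 7.68%, 5.81% and 2.07% in the same order. Over the 12201 promoters of measured genes they were 8.40%, 7.26%, 11.7%, 8.79%, 3.02% and 1.37%. These matches are letters only, and binding was not measured.

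Of 13437 genes, 518 (3.86%) were heart-marking, and 220 (1.64%) stood at least 4-fold above every other tissue. Several probe sets were available for 155 of the 518, and for 62 of these at least 1 other probe set had a gap of the opposite sign, among them Tnnt2, Adcy5, Cs, Gata4, Irx4, Kcnip2 and Sucla2. The median gap of the 518 was 1.76, and 55 of them had a gap of at least 5. In 461 of them the lowest heart lay above the highest array of any other tissue, an ordering that 847 of all genes (6.30%) showed. Just inside the threshold lay Sucla2 and Tmod1, both with a gap of 1.01, and just outside lay Slc25a4 and Hey2, both with 0.97. The next tissue was kidney for 123, lung for 117, blood for 112, brain for 96 and liver for 70 of the 518. Tissue by tissue, the heart was at least 2-fold higher than brain for 2680 genes (19.9%), kidney for 1646 (12.2%), liver for 2270 (16.9%), lung for 1731 (12.9%) and blood for 4510 (33.6%). Against the equally weighted mean, 4878 genes were higher in heart (36.3%) and 5676 lower (42.2%), with a median difference over all genes of -0.06.

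The 20 widest gaps included 7 genes of the filament and Z-disc lists, Myl2, Myl3, Myh7, Myom2, Ttn, Actn2 and Myoz2. First came Myl2, the regulatory light chain of ventricular myosin, at 13.21 in the lowest heart, 13.32 at the median and 13.43 in the highest. Blood was next with 2.93 to 4.75, and the gap was 9.53 ± 0.26, the largest of all genes measured. Myl3, the essential light chain of ventricular myosin, followed at 9.09 ± 0.29 over kidney. After Nppa (8.04) came Lrrc10 (7.57 ± 0.13), a leucine-rich repeat protein of cardiac muscle, and Pln (7.37 ± 0.14), the phospholamban that restrains the calcium pump. Txlnb had a gap of 7.36, Nppb of 7.32, Rpl3l, a muscle version of a ribosomal protein, of 7.24, Myh7, the slow myosin heavy chain, of 7.05, and Trim72, a membrane repair protein, of 7.02. Ckm, Myom2, Mb, Tnni3k, Actn2, Hrc, Ckmt2, Trdn, Myoz2 and Ttn completed the first 20, with gaps from 6.98 down to 6.39.

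Of 232 genes on 17 lists of heart functions, 205 were measured, and 114 of these (55.6%) were heart-marking, against 3.86% of all genes. The lists were drawn up with earlier results of these data known, so this share is not independent of them. Of the 205, 195 were higher in heart than the mean of the other tissues (36.3% of all genes were) and 6 were lower. Their median difference from that mean was 3.26, against -0.06 over all genes. Rescaling the arrays by quantiles or by their medians left 194 higher under either and 5 or 6 lower.

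The myosin thick filament was the most complete group. All 12 measured genes of 14 listed were heart-marking, with a median difference of 7.45 from the mean and 6.03 from the next tissue. The mean of these genes lay between 11.14 and 11.43 on every heart, against medians of 3.01 in brain, 3.25 in kidney, 3.23 in liver, 4.02 in blood and 5.04 in lung. Mybpc3, the myosin-binding protein that tunes filament sliding, ran from 11.57 through 11.80 to 12.14 in heart and from 4.38 to 6.56 in blood, the next tissue. The groups lay far apart, with a gap of 6.11 ± 0.14 (limma adjusted p = 1.83e-56). Ttn, the giant spring titin, had a gap of 6.39 ± 0.20 over blood, and Mylk3, the cardiac myosin light chain kinase, one of 5.94. The smallest gaps of the group were those of Myl7 (3.21), Mybphl (3.46), Myh6 (3.94) and Myl4 (3.95), each with lung as the next tissue.

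Of 9 measured thin filament genes, 7 were heart-marking. Tnni3, cardiac troponin I, ran from 12.85 through 12.94 to 13.00, and Tnnc1, the calcium-binding troponin C, from 12.39 through 12.52 to 12.57. Both were above every other array, with gaps of 5.60 ± 0.20 over lung and 5.52 ± 0.21 over kidney. Kidney held Tnnc1 at 6.77 to 7.16. Tnni1, the slow skeletal troponin I, had a gap of 0.19 over blood, and Nebl, which encodes nebulette, of 0.59 over lung, and neither was heart-marking. Among 11 measured Z-disc genes, 10 were, and the eleventh, Pdlim5, had a higher mean in liver, by 0.42, on the probe set kept for it. On its other probe set the heart stood at 11.58 and the lung, next, at 4.87, a gap of 6.71. Actn2, the alpha-actinin that cross-links actin at the Z-disc, ran from 11.46 through 11.79 to 11.93 in heart, and Csrp3, a Z-disc protein with LIM domains, had a gap of 5.42. The cardiac actin gene Actc1 and the titin cap gene Tcap were not analysed here.

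Both natriuretic peptide genes marked the heart and neither measured receptor gene did. Nppb ran from 11.01 through 11.35 to 11.59, and its next tissue, blood, from 3.17 to 5.06. Npr1, the guanylate cyclase receptor of both peptides, ran from 5.69 through 5.94 to 6.35 in heart and from 6.62 through 6.97 to 7.69 in lung. Every lung was above every heart, by 1.08 ± 0.12 on average (limma adjusted p = 5.87e-14). Npr3, the clearance receptor, ran from 4.34 to 5.49 in heart and from 4.27 to 6.04 in lung, groups that overlapped (limma adjusted p = 0.108).

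Of 14 measured calcium-handling genes, all were higher in heart than the mean and 10 were heart-marking, with a median gap of 4.78. Pln ran from 12.64 through 12.88 to 13.04 in heart and from 3.70 through 5.40 to 6.67 in lung. Casq2, the calcium buffer of the cardiac sarcoplasmic reticulum, had a gap of 6.32 ± 0.16 and its partners Trdn and Hrc gaps of 6.58 and 6.71. Ryr2, the calcium release channel, ran from 11.04 through 11.20 to 11.43 in heart. Brain was next with 8.08 to 8.56, so its gap was only 2.84 ± 0.12, and Cacna1c, the pore of the L-type calcium channel, likewise had brain next at 2.62. The pump Atp2a2 was higher in brain by 0.73 on the probe set kept for it, but on another of its probe sets the heart stood at 12.99 and the brain, next, at 11.10. Camk2d, Cacna2d1 and Slc8a1, the sodium-calcium exchanger, were not heart-marking either, with gaps of -0.12, -1.21 and 0.65.

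Genes of excitation and cell contact had smaller gaps. Of 17 measured ion channel genes, 15 were higher than the mean, and 7 were heart-marking, with a median gap of 0.52 that compares with -0.98 over all genes. Kcnip2, the accessory subunit of the transient outward current, ran from 10.71 through 10.91 to 11.16 and brain from 7.29 to 8.02, a gap of 3.26 ± 0.10. Scn4b, an accessory subunit of the sodium channel, ran from 8.79 through 9.30 to 9.59 in heart and from 8.83 through 9.10 to 9.44 in brain, ranges that overlapped (gap 0.12 ± 0.09, limma adjusted p = 0.245). Kcnd2, the pore of that outward current, was lower in heart than in brain by 2.76 ± 0.09 (adjusted p = 7.21e-44). Of 12 measured genes of the intercalated disc, where neighbouring muscle cells are joined, all were higher than the mean and 3 were heart-marking. These were Xirp1, Dsp, which encodes the desmosomal plaque protein desmoplakin, and Pkp2, with gaps of 3.48, 2.45 and 2.29. Gja1, the gap junction protein connexin 43, ran from 11.56 through 11.80 to 12.12 in heart and from 11.42 to 11.69 in brain. The ranges overlapped, and the mean difference was 0.27 ± 0.09 (limma adjusted p = 0.00280). On the other probe set of Gja1 the heart stood at 9.81 and the brain at 8.54, a gap of 1.27.

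Among 16 measured cardiac transcription regulators, 15 were higher than the mean and 7 were heart-marking. Smyd1, a muscle histone methyltransferase, had the widest gap, 4.19, followed by Irx4, the ventricular homeobox factor, at 3.85 ± 0.09. Irx4 ran from 6.28 through 7.09 to 7.41 in heart, above all other arrays. Nkx2-5, the homeobox factor that specifies cardiac muscle, ran from 8.04 through 8.31 to 8.63, with a gap of 2.83 ± 0.12 over blood. Gata4 ran from 7.75 through 8.11 to 8.79 in heart and from 6.06 to 7.19 in liver, its next tissue (gap 1.73 ± 0.14). Tbx5, a T-box factor, ran from 6.69 through 7.91 to 8.47 in heart and from 7.03 through 7.49 to 8.04 in lung. The ranges overlapped with a difference of 0.33 ± 0.10 (limma adjusted p = 0.00180). Mef2c was higher in brain by 1.65.

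Fuel genes were higher in heart, but most had a close second tissue. All 24 measured genes of fatty acid oxidation were higher than the mean, with a median difference of 2.39, and 9 of 24 were heart-marking. Cpt1b, the muscle form of the enzyme that admits fatty acids to mitochondria, ran from 10.75 through 10.92 to 11.06, with kidney next at 5.68 to 7.49 (gap 4.15 ± 0.22). Fabp3, which carries fatty acids through the cytosol, ran from 12.95 through 13.09 to 13.19 in heart and from 10.56 to 10.85 in kidney (gap 2.35 ± 0.18). Lpl, the lipase that frees fatty acids from circulating lipoproteins, and Cd36, which takes them up, had gaps of 2.16 and 1.02 over lung. Acsl1, which activates fatty acids, was lower in heart than in liver by 0.94. All 13 measured citrate cycle genes were higher than the mean, by a median of 2.12, and Idh3b, Cs, Ogdh and Sucla2 were heart-marking, with gaps from 1.01 to 1.19. Oxct1, which lets tissues burn ketone bodies, had a gap of 0.34 over kidney, yet every heart, from 12.17 to 12.38, was above every kidney, from 11.79 to 12.10.

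Creatine and muscle energy genes had wider gaps, with 13 of 20 measured heart-marking and a median gap of 2.88. Ckm and Ckmt2, the cytosolic and mitochondrial creatine kinases, had gaps of 6.98 ± 0.31 and 6.66 ± 0.21. Mb, the oxygen store myoglobin, ran from 12.75 through 12.95 to 13.12 in heart, and lungs, the next tissue, ran from 2.84 through 6.24 to 9.23. The creatine transporter Slc6a8 was lower in heart than in kidney by 0.79.

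Muscle protein upkeep was another group with wide gaps. Of 11 measured muscle chaperones, 9 were heart-marking, and of 11 ubiquitin ligases and kinases, 10. Hspb6, a small heat shock protein of muscle, ran from 11.78 through 11.98 to 12.13, with brain next at 6.45 to 7.76 (gap 4.86 ± 0.17). Hspb1, the widely expressed small heat shock protein, ran from 10.63 to 11.42 in heart and from 10.45 to 11.03 in lung, and the difference was 0.10 ± 0.13 (limma adjusted p = 0.503). Trim54 and Trim63, ubiquitin ligases of the sarcomere, had gaps of 5.24 and 4.62. Of 12 measured genes of the dystrophin complex and costamere, which tie the sarcomere to the membrane, 9 were heart-marking. Des, the intermediate filament desmin, ran from 11.58 through 11.68 to 11.81 in heart and from 7.48 to 8.85 in lung. Dmd itself, the dystrophin gene, was not heart-marking, with a gap of -0.51 against blood.

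Receptors and their signalling genes had the smallest gaps of the 17 lists. Of 14 measured adrenergic and muscarinic signalling genes, 11 were higher than the mean and 2 lower, and 1 was heart-marking, with a median gap of -0.44. That gene was Adcy5, a major adenylyl cyclase of heart muscle, with hearts from 7.44 through 7.59 to 7.91 and a gap of 1.45 ± 0.11 over brain. Adrb1, the beta-1 adrenergic receptor, ran from 4.52 through 5.05 to 5.43 in heart and from 4.19 through 4.64 to 5.22 in lung, ranges that overlapped (difference 0.37 ± 0.10, limma adjusted p = 0.00110). Agtr1a, the angiotensin receptor, was lower in heart than in liver by 5.79 ± 0.12.

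**Figure D2:**
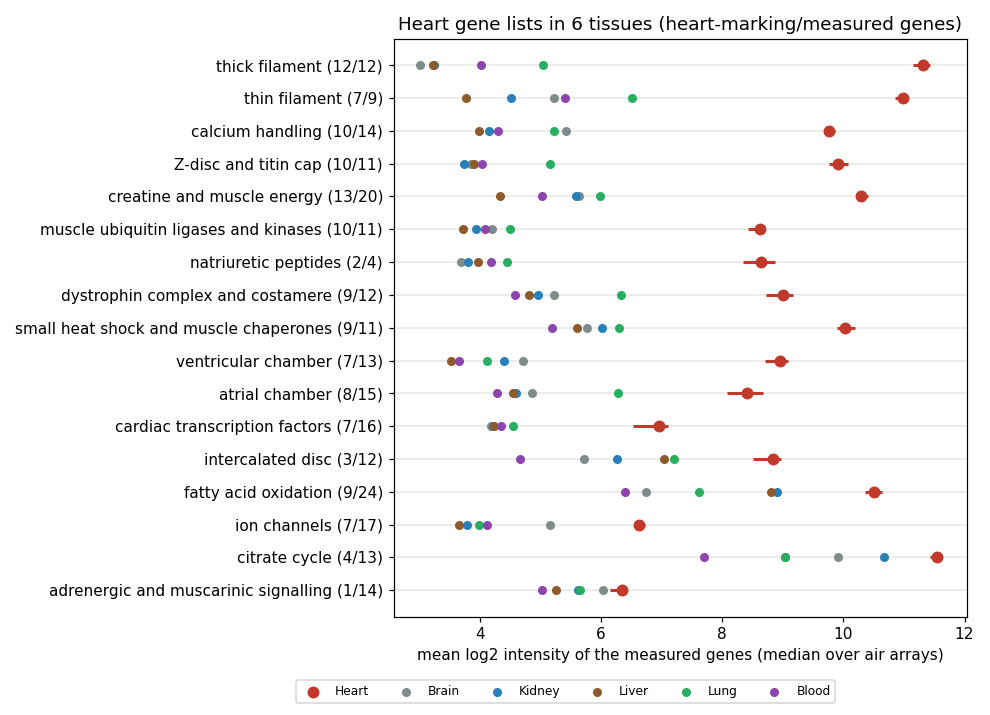
Mean log2 intensity of the measured genes of 17 heart lists (horizontal axis), as the median over the air arrays of each tissue, with a red bar from the lowest to the highest heart and, after each name, heart-marking and measured genes. The heart is highest in every list. The distance to the next tissue is widest for the thick filament (11.31 in heart, 5.04 in lung) and narrowest for adrenergic and muscarinic signalling (6.35 in heart, 6.03 in brain).

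Many proteins come in related forms made from different genes, of which the heart uses one more than another. The pairs listed here are of mixed kinds. The other form is a skeletal muscle one for Casq1, Tnni2 and Tnnt3, and a widespread one in pairs such as that of Slc2a1. Cox4i1, listed as the form used by heart, was itself high in all tissues, from 11.18 in lung to 12.73 in heart. Of 25 such pairs, both genes were measured in 19. The form used by heart was higher in heart than the mean of the other tissues in all 19 and heart-marking in 12. That form was labelled beforehand, and the pairs were chosen with earlier results of these data known, so these counts are not independent of them. The other form was lower in 8, higher in 9 and heart-marking in 1, Casq1. Over all genes, 42.2% were lower, 36.3% higher and 3.86% heart-marking, so the other forms split much as genes in general did. Cox6a2, the muscle form of a cytochrome oxidase subunit, was higher by 8.45 ± 0.16, while Cox6a1 differed by -0.08 ± 0.04 (limma adjusted p = 0.0327). Cox8b was higher by 7.79 ± 0.15 and Cox8a lower by -0.15 ± 0.03. Slc2a4, the insulin-dependent glucose transporter, was higher by 6.15 ± 0.14, and Slc2a1, the widespread one, differed by -0.24 ± 0.08 (adjusted p = 0.00650). Pdk4, a brake on pyruvate entry into the citrate cycle, was higher by 3.75 ± 0.18 and its relative Pdk3 differed by -1.89 ± 0.08. Ckb and Ldha, by contrast, were also higher in heart, by 1.52 ± 0.06 and 1.28 ± 0.05. Tnni2 and Tnnt3, the fast skeletal troponins, did not pass the test (adjusted p = 0.184 and 0.118). No sign in these pairs changed when the arrays were rescaled by quantiles or medians. Under quantile normalization Pgam1 (adjusted p = 0.149) and Pfkl (0.0561) no longer passed as higher, and Tnnt3 passed as lower (0.0468).

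**Figure D3:**
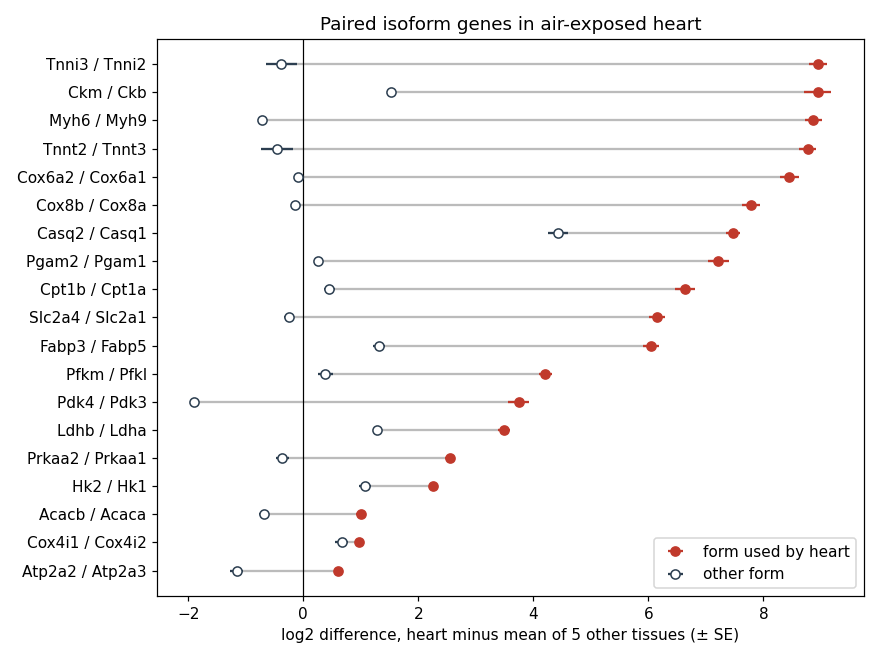
Log2 difference between heart and the mean of the 5 other tissues (horizontal axis, bars are the SE of the limma fit) for 19 isoform pairs, with the form used by heart as filled points and the other form as open points. All filled points lie above 0. The open points spread around 0, except Casq1, which lies at 4.43.

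The genes patterned most like each marker over the 79 air arrays were found by Pearson's r, given as a description since arrays of a tissue share its mean. Myl7 (r = 0.993) and Myl4 (0.988), the regulatory and essential light chains of atrial myosin, were nearest to Myh6. Adprhl1 and Trdn (both 0.982) were nearest to Nppa, and Cox6a2 (0.990) and Myoz2 (0.983) to Tnnt2. The neighbours of Myh6 had lung as their next tissue, as Myh6 did. The neighbours of Nppa had brain or blood next.

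Atrial and ventricular genes were both at high level. Of 15 measured atrial genes, 8 were heart-marking, and of 13 ventricular genes, 7. Myl7 ran from 12.07 through 12.47 to 12.79 in heart, Sln, the atrial regulator of the calcium pump, from 10.27 through 10.83 to 11.08, and Myl4 from 10.65 through 10.96 to 11.45. On the ventricular side, Myh7 ran from 9.87 through 10.78 to 11.20, a wider range than that of Myl2. The share of atrium in an extract was not recorded, and its part in these ranges was not tested.

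Over the 14 hearts, the correlations of 15 pairs of chamber genes were tested by permutation (100000 resamples, two-sided), and 3 passed the adjustment over 15 pairs. Myl7 and Sln varied together, with Pearson r = 0.801 (p = 0.000500, adjusted p = 0.00750) and Spearman rho = 0.829. Without the 2 hearts farthest from the median of Myl7 r was 0.762 (adjusted p = 0.0379), and after removing the mean of each time it was 0.721 (adjusted p = 0.0302). Nppa and Myl7 had r = 0.720 (adjusted p = 0.0436) and rho = 0.635 (adjusted p = 0.0655), and without 2 hearts r = 0.606 (adjusted p = 0.111). Nppa and Sln had r = 0.673 (adjusted p = 0.0436) and rho = 0.622 (adjusted p = 0.0655), and without 2 hearts r = 0.407 (adjusted p = 0.406). In these relations the hearts left out were the 2 farthest from the median of Nppa, and neither passed the adjustment without them. After removing the mean of each time, r was 0.696 for Nppa and Myl7 and 0.704 for Nppa and Sln (permutation, adjusted p = 0.0302 for each). The times hold 4, 4, 2 and 4 hearts, too few for a correlation within each. The heart of Rat738 was lowest for all of Nppa (11.95), Myl7 (12.07) and Sln (10.27) and highest for Myl2 (13.43).

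The lung was the next tissue for many heart-list genes. Of the 205 measured heart-list genes, 69 (33.7%) were at least 2-fold higher in lung than in the mean of brain, kidney, liver and blood, against 18.6% of all genes, and for 56 the lung was the next tissue. In 39 of the 114 heart-marking ones the lung came next, against 117 of all 518 heart-marking genes. How many of all genes had the lung next was not counted. Myh6 was higher in lung by 6.16 ± 0.15 and Myl7 by 6.41 ± 0.18 on this comparison, while Nppa was not (-0.29 ± 0.17, limma adjusted p = 0.0998). The value for Myh6 holds for the probe set kept for it, and its other probe sets were far lower in lung, as given above. The source of these transcripts in lung was not tested. Leaving out the lungs of Rat733 and Rat738, an analysis added after the data were seen, gave 64 genes.

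Single lungs differed widely in these genes. The lung of Rat745, taken at 24 h, was the lowest of 14 for Myh6 (5.44), Myl7 (5.35), Tnni3 (4.02), Tnnt2 (3.43) and Myl4 (3.84). The heart of the same rat had the surfactant gene Sftpc at 5.49, and the other hearts lay at 3.202 or below. In the lungs of Rat733 and Rat738, which carried skeletal muscle markers, genes shared by ventricle and slow skeletal muscle stood out, with Myl2 at 7.10 and 6.24, Myl3 at 8.58 and 5.48, Myh7 at 6.33 and 5.95, and Ckm at 10.76 and 7.88. Nppa reached 6.92 in the lung of Rat726 and 5.44 in that of Rat733. What set these lungs apart was not tested. Without any single rat, the gap of Myh6 lay between 3.67 and 4.03.

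**Figure D4:**
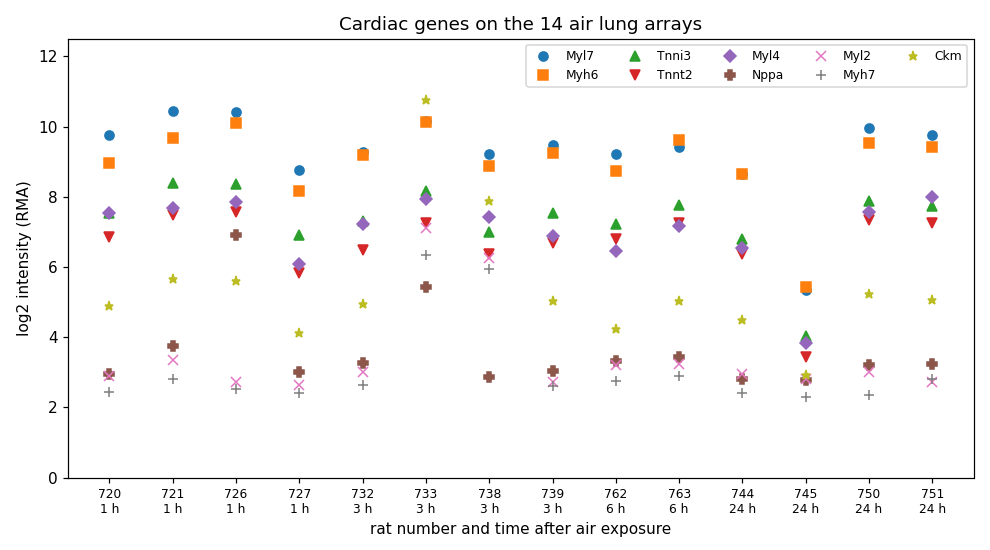
Log2 intensity (vertical axis) of 9 cardiac genes on the 14 air lung arrays, by rat number and time after exposure (horizontal axis), 1 symbol per gene. Rat745 is lowest for Myh6, Myl7, Tnni3, Tnnt2 and Myl4. Myl2 and Myh7 stand out in Rat733 and Rat738, and Nppa in Rat726 and Rat733.

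Genes that mark the heart by being low were few when all 5 other tissues were counted. Only 31 genes (0.231%) were at least 2-fold lower in heart than in every other tissue, and for 15 of them the highest heart lay below every other array, an ordering that 29 of all genes (0.216%) showed. Akr7a3, an aldehyde reductase, ran from 3.14 through 3.87 to 4.58 in heart, and its lowest other tissue, brain, from 5.10 to 6.32. Its means were 3.82 in heart and 5.76 in brain, and its gap to kidney, its highest tissue, was -8.61 ± 0.12. Ocln, the tight junction protein occludin, ran from 2.88 through 3.54 to 4.79 in heart and was below the mean by -3.69 ± 0.11. Gjb2, the epithelial gap junction protein connexin 26, differed from the mean by -3.99 ± 0.12, and Nherf1, a scaffold of the apical membrane of epithelia, by -2.82 ± 0.07. Prxl2a, Ptprj, Myrf, Evi5, Bltp3b and Faah made up the first 10, with differences from the mean between -2.28 and -2.98. On another probe set of Evi5 the heart stood at 5.78 and blood at 4.63, so the heart was not the lowest tissue there. How far the probe sets of the 31 genes agreed on this call was not counted. With the 4-fold limit, 2 of the 31 genes were left. With blood left out, 158 genes were heart-low.

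Markers of other cells showed what else the heart extracts held. Of 14 measured skeletal muscle genes, 3 were higher than the mean and 3 lower, and 1, Casq1, the skeletal calsequestrin, was heart-marking. Casq1 ran from 7.55 through 8.10 to 8.64 in heart, with kidney next (gap 2.74 ± 0.22). The lung of Rat733, which carried skeletal muscle transcripts, reached 7.61, above the lowest heart. The mean of the list was 3.63 to 4.03 over hearts, and Tnni2, Tnnt3, Atp2a1, Myod1 and Myog did not differ from the mean beyond the threshold (adjusted p from 0.118 to 0.997). All 9 measured endothelial genes and all 10 fibroblast genes were higher in heart than the mean, but the list medians were higher in lung for both, at 9.87 against 8.79 in heart for endothelium and 10.13 against 9.65 for fibroblasts. Dcn and Lum, small proteoglycans of the matrix, were the 2 heart-marking fibroblast genes, with gaps of 1.92 and 2.67. Smtn was the single heart-marking gene of 8 for smooth muscle, and Fabp4 the single one of 9 for endothelium. The red cell and platelet genes averaged 5.11 to 6.22 in hearts, against a median of 10.75 in blood. Globin genes were not analysed here.

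Hepatocyte and adipocyte lists had the widest ranges over hearts, 3.79 to 7.30 and 4.62 to 6.86. Ucp1, the uncoupling protein of brown fat, ran from 2.57 in Rat739 and 2.83 in Rat738 to 9.97 in Rat732. Cidec, a lipid droplet protein, ran from 2.74 to 6.84, and the hearts of Rat738, Rat739 and Rat751, with Ucp1 at 2.83, 2.57 and 3.77, were also the lowest for Cidec. Rat727 was close to them for Cidec, at 2.97, with Ucp1 at 5.38. Adipoq, another adipocyte gene, ordered the hearts otherwise, with Rat727 lowest (3.26) and Rat739 (4.11) above Rat726 (3.81). The fat around these hearts was not described, and its part in the Fabp4 and Lpl levels was not tested. Albumin, a hepatocyte product, measured 11.52 and 11.59 in the hearts of Rat762 and Rat763, 10.48 in Rat751 and 3.12 in Rat738. Kidney tubule and brain lists stayed between 3.71 and 4.26 and between 3.19 and 3.90 on all hearts.

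**Figure D5:**
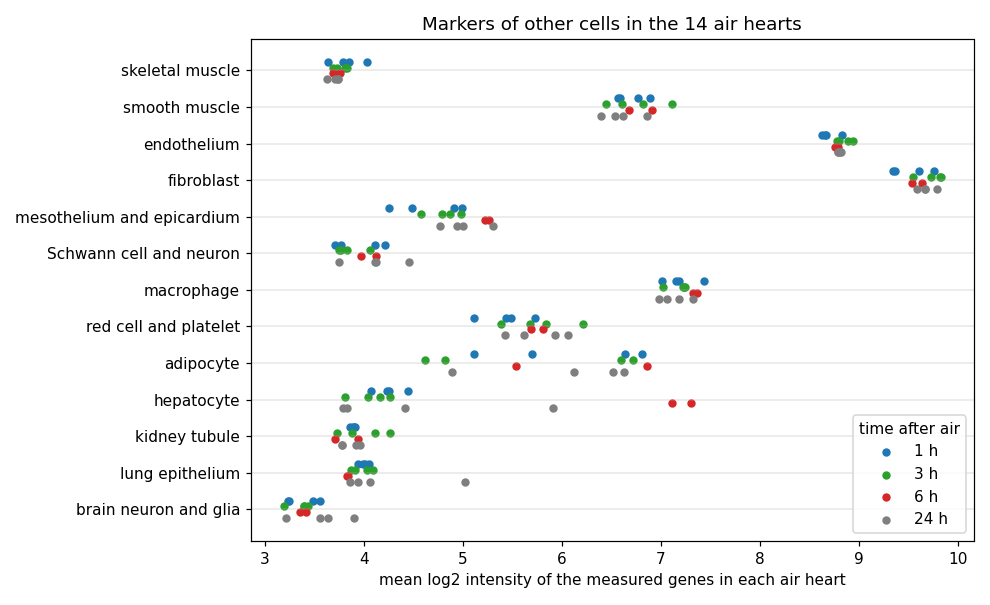
Mean log2 intensity (horizontal axis) of the measured markers of 13 other cell types (rows) in each of the 14 air hearts, coloured by time after exposure. Hepatocyte markers stand at 7.11 and 7.30 in the 6 h hearts. Adipocyte markers spread from 4.62 to 6.86, and a 24 h heart stands out for lung epithelium at 5.03.

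No heart-list gene passed the test over time after air breathing. A limma moderated F test over 1, 3, 6 and 24 h called 93 genes (0.692%), and 0 of the 205 heart-list genes, of which 21 (10.2%) had an unadjusted p under 0.05, against 11.6% of all genes. Hepatocyte markers made up 9 of the 93, and the 6 h hearts with hepatocyte transcripts gave all values at that time. When arrays with transcripts of another organ were left out, which removes the 6 h group, 1 gene was called. Without Rat763 alone 9 genes were called, without Rat762 alone 42, and without Rat727 232. The differences of heart from brain, kidney, liver and lung for Myh6, Nppa, Tnnt2, Myl4, Myl7, Sln, Myl2 and Irx4 did not differ between times by limma's interaction test (adjusted p from 0.668 to 1.00, unadjusted p from 0.128 to 0.982).

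Heart-list genes were called after phosphine in small numbers. Of 205 heart-list genes, 3 were called at 1 h (2 higher, 1 lower), 12 at 3 h, 2 at 6 h and 2 at 24 h (all higher). Over all genes, the shares higher and lower were 0.990% and 0.342% at 1 h, and 1.06% and 2.28% at 3 h. They were 0.186% and 0.164% at 6 h, and 0.0744% and 0.00744% at 24 h. The shares lower at 1 h and 3 h and higher at 6 h and 24 h were larger on the lists than over all genes. These rest on 1, 11, 2 and 2 genes, and the other shares were not larger. Myh6, Nppa and Tnnt2 were not called at any time. The calls at 3 h were 11 falls and 1 rise, and they included Gja1 (-0.84 ± 0.11, limma adjusted p = 0.000151), Irx4 (-0.82), Hand2 (-0.73), Dsp (-0.40) and Cdh2 (-0.38), 2 of them transcription factors and 3 genes of the intercalated disc. The median difference of the 205 genes at 3 h was -0.21, against -0.02 over all genes. At the other times it was 0.00, 0.02 and -0.11. The hearts of 5 exposed rats also held transcripts of another organ. Among them was the 3 h heart of Rat729, with a hepatocyte list 8.25 above the median heart. Without all such arrays 7 genes were called at 3 h, 4 of them higher and 3 lower. Without Rat729 alone 6 were called, 3 higher and 3 lower, so the excess of falls was not kept. Which of the named falls remained was not examined. Leaving out single rats gave 3 (Rat739) to 40 (Rat728) calls at 3 h and 0 to 4 at 1 h.

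Some heart-marking genes lay side by side in the genome. Among 9217 pairs of neighbouring measured protein-coding genes in the GRCr8 annotation, both were heart-marking in 25 (0.271%), 49 genes in all of the 509 that could be placed. The pairs included Myh6 with Myh7 and Nppb with Nppa, both tandem relatives. They also included Kcnj11 with Abcc8 and Kcnj8 with Abcc9, each a potassium channel pore beside its sulfonylurea receptor. Hspb2 lay beside Cryab, both small heat shock genes, Dcn beside Lum, and Plin4 beside Plin5, both coats of lipid droplets. Abcc8, Kcnj8, Plin4 and Plin5 are named here after their values were seen.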

How the data were processed

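RNA of 6 tissues was labelled with the 3' IVT Plus kit and hybridised to single-colour Affymetrix rat arrays, per the labels' protocols. The authors deposited log2 intensities of probe sets, made with RMA and Partek, per the submitters' processing notes. Versions of both, and whether tissues were normalized together, are not given in the sources used here. RMA with quantile normalization makes differences between tissues relative to the bulk of genes. Of 31139 probe sets, 97 were controls, 19062 listed 1 gene and 573 several. For 3985 of 13437 genes with several probe sets, the brightest on average over the 174 arrays was kept. No dim gene was left out. The number of arrays sets the precision, as there are no reads to count.

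The 79 air arrays were fitted in R 4.3.3 (limma 3.58.1; data.table, version 1.17.8) with 1 mean per tissue, eBayes and Benjamini-Hochberg adjustment over all genes at 0.05. Hearts were also tested over time by limma's moderated F, and against phosphine hearts at each time. Replicates are separate rats. Same-numbered tissues come from the same rat, per the titles. The mean correlation of their deviations from tissue means with the heart was 0.200 for lung, 0.141 for kidney, 0.078 for liver, 0.050 for blood and 0.016 for brain. The fit was tested on simulated arrays with known changes. Figures and permutation tests used Python 3.11.15, pandas 2.3.3, NumPy 2.4.6 and SciPy 1.17.1.

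The members, gene lists, comparisons and settings were chosen with earlier results of these data known. Named were Myh6, Nppa and Tnnt2, the 20 widest gaps, and the 10 heart-low genes farthest below the lowest other tissue. Also named were up to 6 members per list with the widest and 2 with the smallest gaps, and all isoform pairs. The 2 genes nearest in pattern to each marker, and up to 5 called genes per list for time and phosphine, completed the choice. Alternatives were the rat as a block, quantile normalization, centring on array medians, a filter at the 40th percentile of mean level, the mean of probe sets, trended and robust eBayes, array weights, blood left out, rats with all 6 tissues, single times, arrays with transcripts of another organ left out, a 4-fold limit, and leaving out each rat.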

Additional observations from a re-analysis of the deposited data

Results flagged for a closer look

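Of 99 groups of 4 air hearts tested (list means and single genes at 1, 3 and 24 h), 4 had 1 heart farther from the others than Dixon's critical value, and chance alone flags about 1 in 20 groups. At 3 h, the heart of Rat738 had the highest Z-disc list mean, 10.04 against 9.90 to 9.92, and the lowest macrophage list mean, 7.02 against 7.23 to 7.24. At 3 h, the heart of Rat739 had a brain list mean of 3.19, against 3.39 to 3.43 in the others. At 1 h, the heart of Rat720 had Myh6 at 12.80, and the others lay at 12.86. In each case the distance was small beside the difference of heart from the other tissues.

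Probe sets with no gene name or with several were not used above. Of 11980 such probe sets, 239 (1.99%) were at least 2-fold higher in heart than in each other tissue, and 104 were at least 4-fold higher. The widest gap among them was 6.78.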

How the results depend on the processing

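With the rat as a replicate block, 516 genes were heart-marking, all of them among the 518, and 33 heart-low, of which 30 were among the 31. The block gave 10598 genes that differed from the mean of 5 tissues, against 10554, and 69 heart-list genes higher in lung, and it left the gaps of Myh6, Nppa and Tnnt2 past the threshold. It was not run for other results. The count of heart-marking genes was 321 without genes under the 40th percentile, which tests fewer genes, and 220 at 4-fold, and it ran from 509 to 524 when single rats were left out. Heart-low genes were 55 under median centring, 158 without blood, 152 at 24 h, which has no blood, 2 at 4-fold, and 28 to 36 without single rats. Of the 31 heart-low genes, 21 were kept under quantile normalization and 22 under median centring. Genes that differed from the mean were 6765 under the percentile filter and 10377 to 10565 without single rats. Quantile normalization split them into 4284 higher and 5975 lower, and median centring into 4529 and 6255. With the mean of probe sets the gaps were 5.82 for Myh6 and 3.12 for Tnnt2. Gaps without single rats ran from 3.67 to 4.03 for Myh6, 8.005 to 8.08 for Nppa and 5.80 to 6.12 for Tnnt2.

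Genes over time in air were 61 under the filter, 1 without arrays carrying another organ's transcripts, and 9 (Rat763) to 232 (Rat727) without single rats, with 42 without Rat762. Heart-list genes called after phosphine at 1 h were 1 under the filter, 5 with the mean of probe sets and 1 without arrays carrying another organ's transcripts. Single rats left out gave 0 (Rat719, Rat720, Rat721), 1 (Rat712, Rat726, Rat727) or up to 4. At 3 h there were 7 under centring, 5 under the filter and 7 without those arrays, and without single rats 3 (Rat739), 5 (Rat733), 6 (Rat729, Rat730, Rat738), 7 (Rat731, Rat732) or 40 (Rat728). At 6 h there were 0 under the filter and 14 with array weights, and 0 to 1 without single rats. At 6 h leaving out the arrays with another organ's transcripts was not run, since no air heart remains. At 24 h there were 1 under centring, 1 under the filter and 9 with weights, and 1 to 2 without single rats. Of 3 called correlations, 1 was called without 2 hearts, with adjusted p = 0.111 for Nppa and Myl7 and 0.406 for Nppa and Sln. The cause of these changes was not tested. Means of 2 to 14 hearts limit the precision, and levels near 3 lie close to background.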

Other observations

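Dbp and Bmal1, both genes of the circadian clock system, are given here as single genes chosen after their values were seen. Both were among the 93 genes that differed over time in air hearts. Dbp averaged 6.74 at 1 h, 7.86 at 3 h, 8.66 at 6 h and 6.04 at 24 h (limma moderated F, adjusted p = 0.0258). Bmal1 averaged 5.99, 5.69, 4.24 and 6.68 at the same times (adjusted p = 0.0476). The 6 h means rest on the hearts of Rat762 and Rat763 alone, which also carried hepatocyte transcripts. Without the arrays that carried transcripts of another organ 1 gene was called over time, and without Rat763 9 genes.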
